A study of Homo sapiens with 15 samples.

Results

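The 8 globin genes of the beta-globin locus on chromosome 11 (HBE1, HBG2, HBG1, HBD and HBB) and of the alpha-globin locus on chromosome 16 (HBZ, HBA2 and HBA1) were examined among 19812 protein-coding genes with 1 symbol each. Members were taken by position in hg19: the genes and unique 3′-OH sites inside 2 windows, chr11:5240001-5320000 of 80 kb and chr16:150001-240000 of 90 kb, each set against 2 flanks of the same size. A unique site is 1 position and strand at which at least 1 terminus was counted. The samples were crosslinked nuclei of K562, a human leukemia cell line with erythroid features, in 3 biological replicates each without P1 nuclease and with 0.01, 0.1, 1 or 10 U of P1, a nuclease that cuts single-stranded DNA. In SSiNGLe-P1 the 3′-OH ends in these nuclei, those left by P1 and those present before, were tailed with polyA, amplified and sequenced. All 15 samples came from the same cell line, and no second line or cell type served as a reference. The 15 libraries held 2057216 to 3881950 unique nuclear sites, with a median of 2566822.

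The globin genes encode the chains of hemoglobin, which pairs alpha-like with beta-like chains. In each cluster the genes stand in the order of their use in development. HBE1 (epsilon) and HBZ (zeta) are embryonic, and HBG2 and HBG1 (gamma) fetal. HBB (beta) and HBD (delta) are adult, and HBA2 and HBA1 (alpha) serve in fetal and adult life. An upstream control region drives each cluster, the locus control region beyond HBE1 and enhancers within introns of NPRL3 beyond HBZ. K562 cells are known to transcribe the embryonic and fetal genes and little or no HBB and HBD, so that the beta cluster holds active and inactive genes of almost the same structure side by side.

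Few positions had a site in more than 1 library. In the beta window 1569 positions had a site in 1 library, 103 in 2 and 2 in 3. Of those found in at least 2 libraries, 46 were HBB exon positions shared by 0.1 U replicate 2 and 10 U replicate 2. In the alpha window 2277 positions had a site in 1 library, 69 in 2, 4 in 3 and 1 in 4. Of the positions found in at least 3 libraries, 4 are printed with 14 bases of hg19 on each side, on the strand of the deposited site and with the terminal base in capitals, to show the sequence around the recurrent termini.
chr16:224467-224495, plus strand: catgctgggaagttGcacagcccatctgg
chr11:5248174-5248202, minus strand, in exon 1 of HBB: gcaaggtgaacgtgGatgaagttggtggt
chr16:155559-155587, plus strand: tgcagtgcaaggctCcgcaccaagtacca
chr16:180102-180130, minus strand: tcaagtcccttcttGgtgtccaggctcag
The first, at position 224481, was found in 0.1 U replicates 1 and 3 and in 10 U replicates 2 and 3, with 5 termini in all, and lies between HBA2 and HBA1. The position in HBB had 8 termini in 0.1 U replicate 2, 1 U replicate 3 and 10 U replicate 2. The third and the last had 4 and 3 termini in 3 libraries each. Of these 4 positions, only the third was found in an untreated library.

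HBB set 2 libraries apart from all others. Results that rest on them are given with and without them. HBB, the adult beta chain (chr11:5246694-5248301, minus strand, 3 exons), held 3, 2 and 0 unique sites in the untreated libraries, 3, 2 and 2 at 0.01 U, 5, 69 and 4 at 0.1 U, 2, 2 and 4 at 1 U, and 4, 279 and 4 at 10 U, in replicates 1, 2 and 3. Replicate 2 at 0.1 U and replicate 2 at 10 U were far above the other 13 libraries, which ranged from 0 to 5. Replicate 2 of the untreated, 0.01 U and 1 U samples was not raised.

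**Figure D1:**
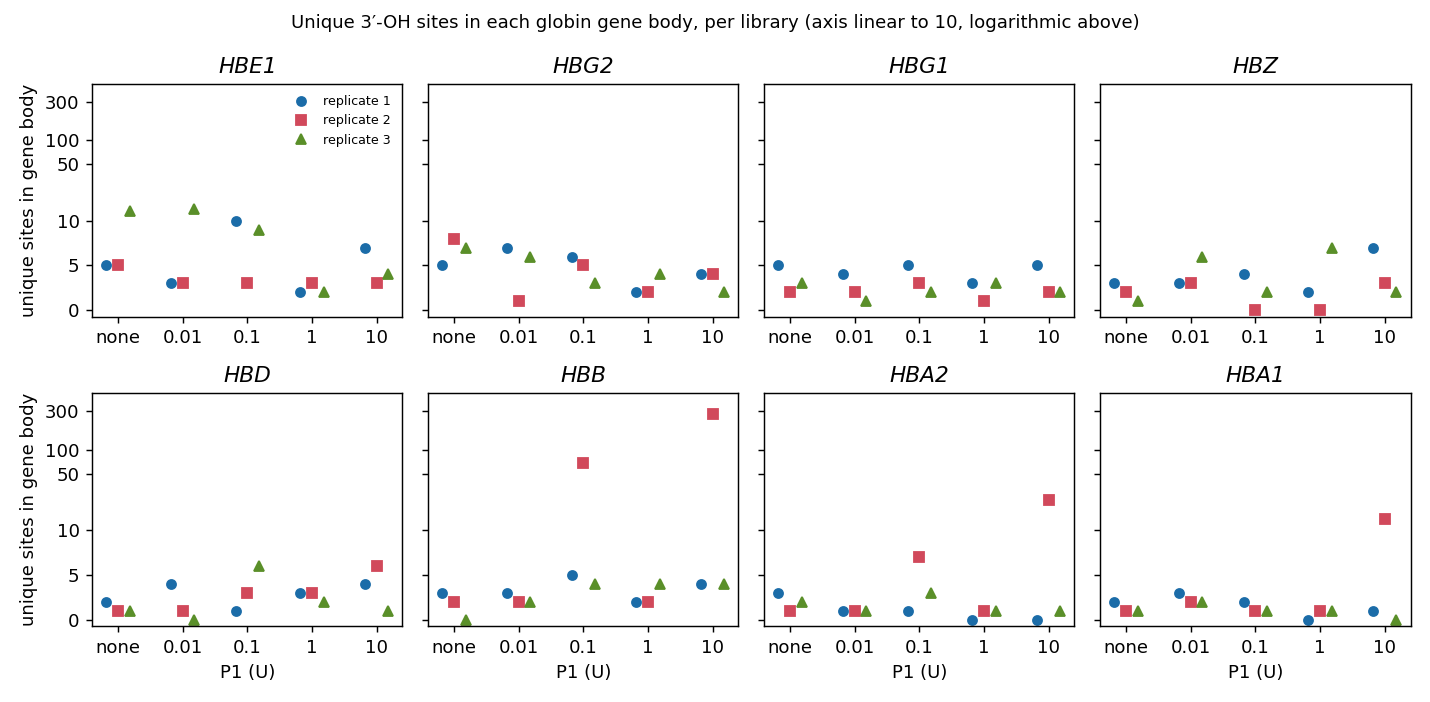
Unique 3′-OH sites in the body of each globin gene (vertical axis, linear up to 10 and logarithmic above) by amount of P1 (horizontal axis), with 1 point per library and a colour and shape per replicate. HBB stands at 69 and 279 in replicate 2 at 0.1 U and 10 U against 0 to 5 elsewhere, HBA2 and HBA1 at 24 and 14 in replicate 2 at 10 U, and HBE1 reaches 13 without P1.

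In these 2 libraries the sites lay in the exons and on 1 strand. In 10 U replicate 2, 276 of the 279 HBB sites were exonic, all 276 of them 3′-OH ends of the template strand, and in 0.1 U replicate 2, 68 of 69 were exonic, 67 on the template strand. The template strand is the one RNA polymerase copies. A deposited site on the gene's own strand was read as an end of the template strand, because read 2 is complementary to the tailed strand. Exons make up 39.1% of the length of HBB. Over the other 13 libraries 25 exonic sites were found, 12 on the template and 13 on the non-template strand.

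Per exon, 10 U replicate 2 had 50 template-strand sites in exon 1, 106 in exon 2 and 120 in exon 3, and 0.1 U replicate 2 had 21, 26 and 20. The 130 bases of intron 1 had none in either library, and the 850 bases of intron 2 had 1 in each, at the same base, position 5246957, the last of the intron. That base carried 16 termini in 10 U replicate 2, 5 in 0.1 U replicate 2 and 0 in the other 13 libraries. On the HBB strand, 5′ to 3′, the end of exon 2 is printed, and the end of intron 2 with the start of exon 3. The last base of exon 2 and of intron 2 is in capitals, because this exon and this intron end in the same letter.
end of exon 2, chr11:5247807-5247820: ctgagaacttcagG
end of intron 2 and start of exon 3, chr11:5246943-5246970: tcttcctcccacaGctcctgggcaacgt
The identity extended over 1 base. At the 3′ side of the exons the sites stopped short of the border, with the last template-strand site 17 bases from the end of exon 1 and 32 bases from the end of exon 2 in 10 U replicate 2, and 23 and 35 bases in 0.1 U replicate 2. At the 5′ side they began 3 and 5 bases into exon 2, and 0 and 1 bases into exon 3. In exon 3 the last 118 bases in 10 U replicate 2 and the last 132 bases in 0.1 U replicate 2 were empty. Coding sequence (441 bases without the stop codon) held 256 and 66 of the template-strand sites, or 580.5 and 149.7 per kb, whereas the 137 bases after it held 11 and 1. Sites covered 43.9% of the 628 exonic bases in 10 U replicate 2 and 10.7% in 0.1 U replicate 2, and 46 positions were shared, which were 68.7% of the positions of 0.1 U replicate 2 and 16.7% of those of 10 U replicate 2.

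**Figure D2:**
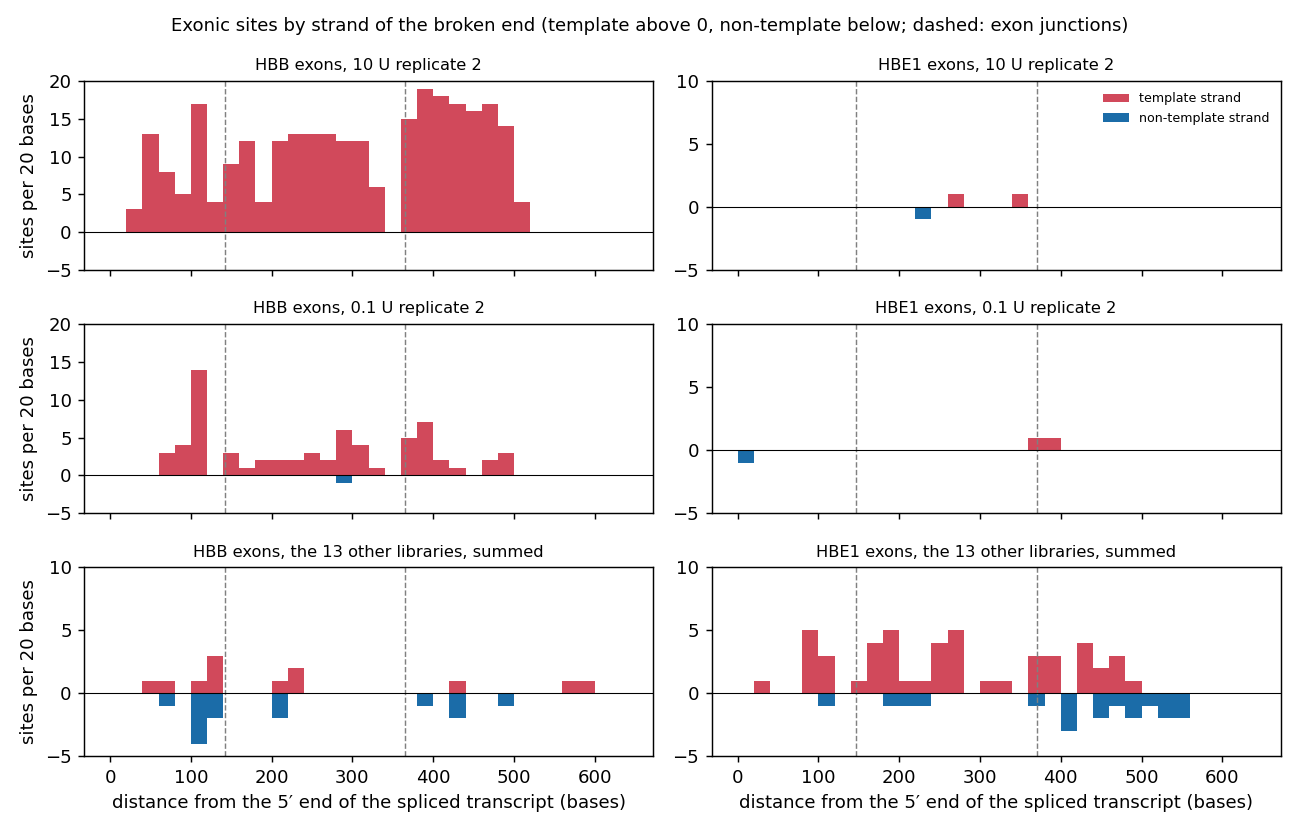
Exonic sites per 20 bases (vertical axis, template strand above 0 and non-template strand below) along the spliced transcripts of HBB (left) and HBE1 (right), by distance from the 5′ end in bases, for 10 U replicate 2, 0.1 U replicate 2 and the sum of the other 13 libraries, with dashed lines at exon junctions. HBB is covered on the template strand alone in 10 U replicate 2 from exon 1 into exon 3, while HBE1 has 48 template-strand and 18 non-template-strand sites over the other 13 libraries.

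By template-strand sites per kb of exon, HBB ranked 1 of 19812 genes in both libraries, with 439.5 and 106.7 per kb. In 10 U replicate 2 the next were HBA2, with 38.2 per kb, and, at rank 4, HBA1, with 22.5 per kb. HBA2 (chr16:222875-223709) and HBA1 (chr16:226679-227521), the alpha genes, had 22 and 13 template-strand exonic sites in 10 U replicate 2. The other 13 libraries had 0 to 3 and 0 to 1. All 22 and all 13 lay in exon 3, while exon 1 and intron 1 of both genes had no site in any library. HBA2 had 5 in 0.1 U replicate 2 and HBA1 had 1. The 2 genes are near-identical copies, and 64.7% and 64.0% of their 100-base words occur more than once in the window, so that reads of the shared stretches cannot be given to 1 copy. The beta-like neighbours did not follow. HBD had 2 and 3 template-strand exonic sites in 10 U and 0.1 U replicate 2, HBE1 2 and 2, HBG2 2 and 4, and HBG1 0 and 1.

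Some genes of white blood cells were also high in 10 U replicate 2. Ranked by the excess of template-strand exonic sites over the number scaled from the other 13 libraries, the genes after HBB and HBA2 in that library were S100A9, a calcium-binding protein of neutrophils and monocytes, with 18 sites against 0.979 scaled from the others, and LYZ, lysozyme, with 14 against 0.587. ACTB, beta-actin of the cytoskeleton, followed HBA1 with 34 against 8.91. RESF1 (21 against 4.11), STXBP2 (14 against 2.45), WNK1 (25 against 7.44) and MUC5B (62 against 29.1) came next. In 0.1 U replicate 2 the genes after HBB were ZMAT4 (9 against 1.41), ELMOD3 (10 against 1.86) and SYT11 (14 against 3.72). None of the first 10 there was in the white blood cell list that follows. A list of 13 white blood cell genes, chosen after these values were seen, had 93 template-strand exonic sites in 10 U replicate 2, 27 in 0.1 U replicate 2 and 10 to 39 in the others. On the non-template strand it had 35, 14 and 14 to 40. Without S100A9 and LYZ the list had 61 in 10 U replicate 2. In that library 7 of the 13 genes were above all 13 other libraries and 6 were not. It was the deepest treated library (3291983 unique sites), and the share of all genes so raised was not computed, so this count has no background. The B cell genes CD79A and MS4A1 were at 0 on the template strand in that library. A list of 30 erythroid genes had 46.8 template-strand exonic sites per 1000000 unique sites in 10 U replicate 2 and 26.8 to 50.3 in the other libraries. The part of these genes or of other cells in the HBB sites was not tested.

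Each amount of P1 was then compared with no P1. In an edgeR quasi-likelihood test over 19294 gene bodies, 1 of the 8 globin genes, HBB, was higher at 10 U and at 0.1 U and none was lower. Of all gene bodies 0.135% were higher and 0.0622% lower at 10 U, and 0.0104% were higher and 0.00518% lower at 0.1 U. No globin gene was called at 1 U, where 0.00518% of all gene bodies were higher, or at 0.01 U, where 0% were higher or lower. HBB differed by 5.20 ± 0.40 (SE) on the log2 scale at 10 U (adjusted p = 6e-27) and by 3.70 ± 0.53 at 0.1 U (adjusted p = 2.22e-07). The call at 0.1 U was lost with no replicate block (edgeR, 3.93, adjusted p = 0.0661). Without the 2 libraries the differences were 1.33 (adjusted p = 0.748) and 1.39 (adjusted p = 0.983), and DESeq2 called neither with them. In edgeR without the 2 libraries no globin gene was called at 0.1, 1 or 10 U, where 0.0052%, 0.0052% and 0.0104% of all gene bodies were higher and 0.0104% were lower at 0.1 U and 0.0052% at 10 U. HBA2 differed by 1.62 ± 0.64 at 10 U (adjusted p = 0.33) and HBA1 by 1.62 ± 0.78 (adjusted p = 0.458). Without the 2 libraries both turned, to -1.77 ± 1.36 (adjusted p = 0.807) and -1.06 ± 1.46 (adjusted p = 0.918). The 5 other genes had adjusted p-values of 0.581 or more at 10 U in edgeR with all libraries.

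Promoter windows, 1 kb on each side of the start, were tested in the same way. At 10 U 1 of the 8 windows was higher, that of HBB (edgeR, log2 difference 4.01 ± 0.61, adjusted p = 8.26e-05). It was the 1 window called higher among all 18658 (0.00536%), and 0.00536% were lower. The window of HBB overlaps exons 1 and 2 and held 159 sites in 10 U replicate 2, 49 in 0.1 U replicate 2 and 0 to 7 in the others. No promoter window of the 8 genes was called at 0.01, 0.1 or 1 U, where 0% of all windows were higher and 0% lower. Of 34 bins of 5 kb that tile both windows, 1 was higher at 10 U (edgeR, adjusted p = 1.64e-07), where 0.0244% of all 548421 bins were higher and 0.00328% lower, and it was the bin of HBB, chr11:5245001-5250000. It held 15 sites over the untreated, 16 over the 0.01 U, 87 over the 0.1 U, 21 over the 1 U and 293 over the 10 U libraries. No bin of the windows was called at 0.1 or 1 U, where 0.00146% and 0.000547% of all bins were higher. Without the 2 libraries no bin or promoter window of the loci was called at any amount. Of all bins 0.00554% were then higher at 10 U, 0.00166% at 0.1 U and 0.000185% at 1 U. Of all 18334 promoter windows then tested 0% were called at any amount. In the alpha window the bins with the most sites at 10 U were those at 210001 (45 sites against 24 without P1), 220001, with HBA2 (44 against 25), and 225001, with HBA1 (44 against 29), and the next in the beta window were those at 5290001, with HBE1 (28 against 18), and 5260001 (27 against 11). None of these 5 passed the test.

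**Figure D3:**
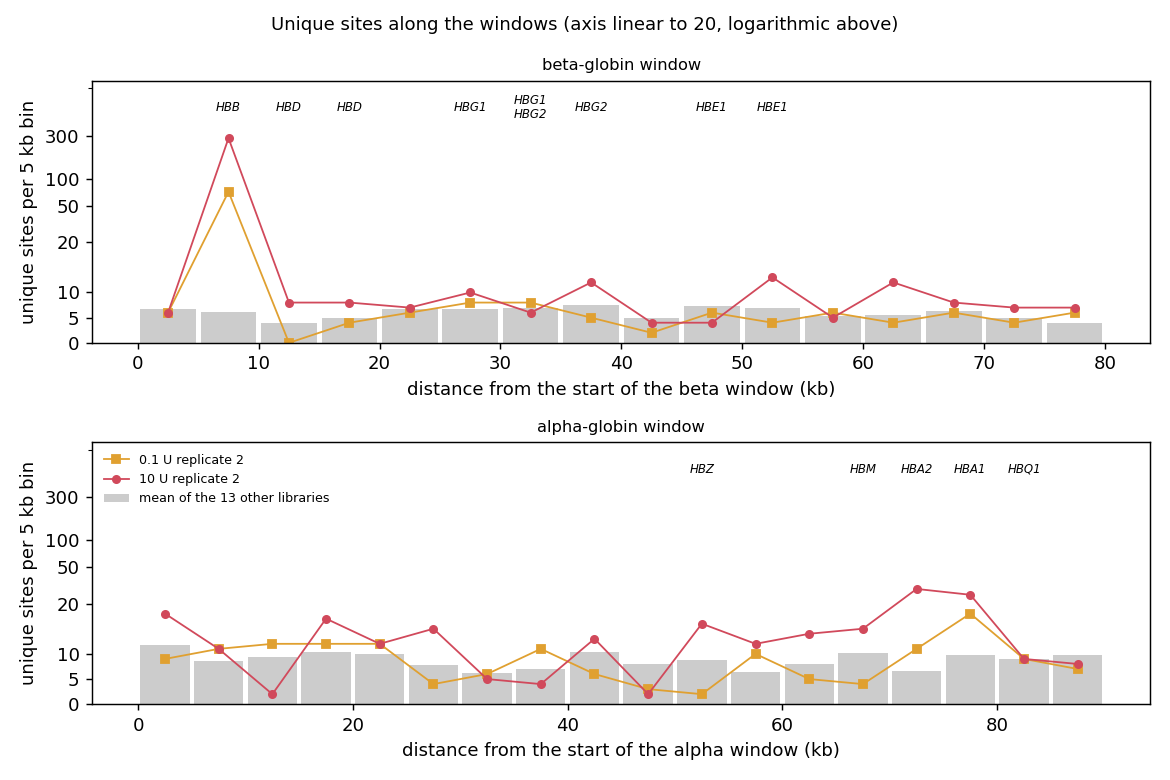
Unique sites per 5 kb bin (vertical axis, linear up to 20 and logarithmic above) by distance from the start of the beta (top) and alpha (bottom) window in kb, as the mean of the 13 other libraries (bars) and for 0.1 U and 10 U replicate 2 (points). The bin of HBB holds 281 sites in 10 U replicate 2 and 72 in 0.1 U replicate 2, the bins of HBA2 and HBA1 hold 29 and 25 in 10 U replicate 2.

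Of the 8 genes, HBE1 had the highest density of sites over the other 13 libraries, summed. HBE1 (chr11:5289575-5291175, minus strand), the embryonic beta-like chain, held 5, 5 and 13 sites in the untreated libraries, 3, 3 and 14 at 0.01 U, 10, 3 and 9 at 0.1 U, 2, 3 and 2 at 1 U, and 7, 3 and 4 at 10 U. The highest values were replicate 3 without P1 and at 0.01 U and replicate 1 at 0.1 U, and the amounts overlapped. No amount differed from untreated (edgeR, adjusted p = 0.845 at 1 U, where the log2 difference was -1.41 ± 0.61).

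Summed over the 13 libraries, HBE1 had 80 sites, or 1.49 per kb per 1000000 unique sites (95% Poisson interval 1.18 to 1.85, counting error only). The median over all protein-coding genes was 0.477. The fetal gene HBG2 (chr11:5274418-5276011) had 1.06 (0.805 to 1.38) and its near-identical copy HBG1 (chr11:5269499-5271087) 0.711 (0.503 to 0.976). The adult genes had 0.684 (0.482 to 0.943) for HBB and 0.524 (0.351 to 0.752) for HBD (chr11:5254068-5255713). In the alpha cluster, HBZ (chr16:202643-204502) had 0.671 (0.484 to 0.908), HBA1 0.6 (0.349 to 0.960) and HBA2 0.57 (0.326 to 0.925). The interval of HBE1 overlapped that of HBG2 alone, and the interval of HBG2 overlapped those of all the others but HBD, so that the order below HBE1 is not resolved. The 6 olfactory receptor genes of the beta flanks, which K562 cells are not known to use, had 0.45 together and 0.285 to 0.972 each. OR51V1 (0.972) and OR51B4 (0.829) were above 6 of the globin genes. Repeated 100-base words made up 39.9% of HBG1, 39.7% of HBG2, 48.2% of HBZ, 64.0% of HBA1 and 64.7% of HBA2. This lowers what could be placed in them by an amount not tested. Exon 1 and intron 1 of HBA1 and HBA2 held no site.

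Most HBE1 sites were exonic. In the 13 libraries 66 of 80 sites (82.5%) fell in exons, which are 38.9% of the gene, giving 105.9 sites per kb in exons and 14.3 in introns, a ratio of 7.4. The ratio was 6.22 when length was counted as positions that pass the filter on T-rich upstream sequence. Over all genes with introns the ratio was 1.46, from 18.96 and 12.94 sites per kb. Among 1649 genes with less than 1000 bases of exon, 0.303% had as many exonic sites per kb as HBE1. Of the neighbours of the same structure, HBD had 33.9 per kb in exons and 7.8 in introns, HBB 39.8 and 12.2, HBG1 37.5 and 16, and HBG2 44.4 and 30.8. In the alpha cluster HBZ (22.56 and 22.60), HBA2 (19.1 and 19.3) and HBA1 (15.6 and 30.1) had about equal densities, or in HBA1 a lower one in exons. The lengths of HBA2 and HBA1 include exon 1 and intron 1, where no site was found. Exons were thus denser than introns in all 5 beta-like genes, with HBG2, at a ratio of 1.44, close to the ratio of all genes.

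**Figure D4:**
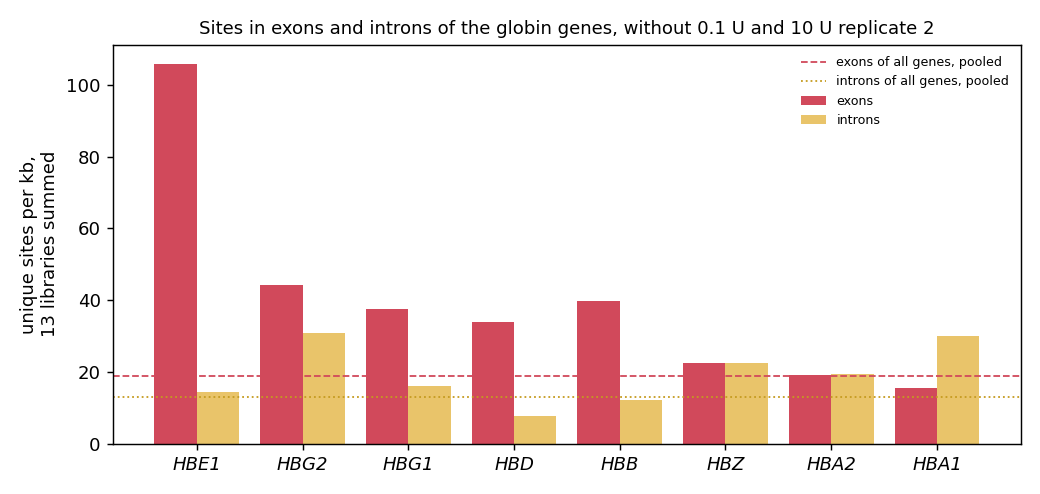
Unique sites per kb in exons and introns of the 8 globin genes (vertical axis), summed over the 13 libraries other than 0.1 U and 10 U replicate 2, with dashed and dotted lines at the pooled density of exons and introns of all genes. HBE1 exons reach 105.9 per kb, and the exons of HBG2, HBG1, HBD and HBB stand between 33.9 and 44.4, above the line for exons at 18.96.

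The template strand carried more of the exonic sites of HBE1. Over the 13 libraries 48 were ends of the template and 18 of the non-template strand, where all genes together had 51.0% on the template strand. The surplus lay in the first 2 exons, with 10 against 1 in exon 1 and 22 against 3 in exon 2, while exon 3 had 16 against 14. Per library, 2, 2 and 7 template-strand exonic sites were found without P1, 2, 1 and 10 at 0.01 U, 8, 2 and 6 at 0.1 U, 1, 2 and 2 at 1 U, and 4, 2 and 1 at 10 U. By density HBE1 ranked 1 of 19812 genes in untreated replicate 3, 2 in 0.01 U replicate 3 and 7 in 0.1 U replicate 1, and 11 to 2573 in the others, with a median rank of 306 over 15 libraries. In an edgeR test of exonic sites by strand over 18816 genes, with each library as a block, the log2 difference of HBE1 was 1.30 ± 0.37 (adjusted p = 0.0767) over 15 libraries and 1.34 ± 0.39 (adjusted p = 0.116) over the 13, which misses the threshold. HBB was the 1 globin gene called in this test (log2 difference 4.30 ± 0.33, adjusted p = 3.55e-26), where 0.468% of all genes were higher on the template strand and 0.175% on the other. Without the 2 libraries HBB was at -0.10 ± 0.61 and no globin gene was called. Of all genes 0.274% were then higher on the template strand and 0.151% on the other. HBG2 had 19 template-strand and 7 non-template-strand exonic sites in the 13 libraries and was not called (adjusted p = 0.566).

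Across the beta cluster, the question was whether the genes K562 uses (HBE1, HBG2 and HBG1, with 1 kb upstream) held more sites per base than HBD and HBB. The ratio was 2.02, 2.27 and 5.11 in the untreated libraries, 1.20, 1.29 and 6.88 at 0.01 U, 1.95, 0.124 and 1.09 at 0.1 U, 1.19, 0.779 and 0.993 at 1 U, and 1.39, 0.0271 and 1.09 at 10 U. HBD and HBB with 1 kb upstream held 6, 5 and 3 sites without P1 and 11, 5 and 2 at 0.01 U. These ratios thus rest on few sites. The ratio was above 1 in all 6 libraries with no P1 or 0.01 U, and the 2 lowest were the libraries with the HBB sites. Over the 13 others 11 were above 1, with a median of 1.29. At 10 U the ratio was 0.245 of that at the other amounts (exact permutation test within replicate numbers, two-sided p = 0.072), and the spread of the 5 amounts gave p = 0.0968. Leaving out the 2 libraries drops all of replicate 2 from this test, which needs a 10 U library in each replicate number. The factor was then 0.628 (exact permutation p = 0.68, where the smallest possible is 0.04). With all replicates kept and the exons of the 8 genes left out it was 0.910 (exact permutation p = 0.808).

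The beta window held more sites per kb than its flanks in all libraries. The ratio of densities was 1.77, 2.00 and 1.52 without P1, 1.62, 1.96 and 1.46 at 0.01 U, 1.89, 2.74 and 1.61 at 0.1 U, 1.84, 1.76 and 1.44 at 1 U, and 1.73, 5.13 and 1.61 at 10 U. With the globin exons left out all 15 libraries stayed above 1, from 1.22 to 1.93. Against all nuclear sites the beta window had 1.27 to 4.59 times the mean density, and 1.27 to 1.62 times in the 13 libraries other than the 2. The ratio to the flanks at 10 U was 1.37 times that at the other amounts (exact permutation p = 0.08, smallest possible 0.008). Without the 2 libraries, and so without replicate 2 in this test, it was 1.02 times (exact permutation p = 0.72). In the alpha window the ratio to the flanks was 0.787 to 1.22, above 1 in 5 of 15 libraries. Against all nuclear sites the alpha window had 1.83 to 2.37 times the mean density in all 15 libraries. The ratio to the flanks at 10 U was 0.997 times that at the other amounts (exact permutation p = 0.976).

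The upstream control regions were compared with the rest of their windows. In the beta window the 27.8 kb beyond HBE1 had 0.670, 0.723 and 0.666 times the density of the rest without P1, 0.832, 1.14 and 0.634 times at 0.01 U, and 0.757, 0.447 and 0.799 times at 0.1 U. It had 0.931, 1.29 and 0.503 times at 1 U and 0.826, 0.259 and 0.785 times at 10 U, above 1 in 2 of 15 libraries, with a factor of 0.736 at 10 U (exact permutation p = 0.296). The lowest value was 10 U replicate 2, whose HBB sites count in the rest of the window. With the globin exons left out the ratio was above 1 in 5 of 15 libraries, with a median of 0.957. Against all nuclear sites the region was above the mean density in 12 of 15, with a median of 1.23. Without the 2 libraries, and so without replicate 2 in this test, the factor was 1.13 (exact permutation p = 0.44). In the alpha window the 51.6 kb upstream of HBZ, most of it NPRL3, had 1.04, 1.48 and 0.827 times the density of the rest without P1, and 1.24, 1.09 and 1.09 times at 0.01 U. It had 0.944, 0.992 and 1.38 times at 0.1 U, 1.25, 0.854 and 0.997 times at 1 U, and 0.795, 0.640 and 0.875 times at 10 U. The ratio was above 1 in 7 of 15 libraries. It was lower at 10 U, by a factor of 0.706 (exact permutation p = 0.032), 1 of 6 such ratios tested and with no adjustment. The call was lost without the 2 libraries, and so without replicate 2 (0.770, exact permutation p = 0.16), and with the globin exons left out (0.778, p = 0.056).

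**Figure D5:**
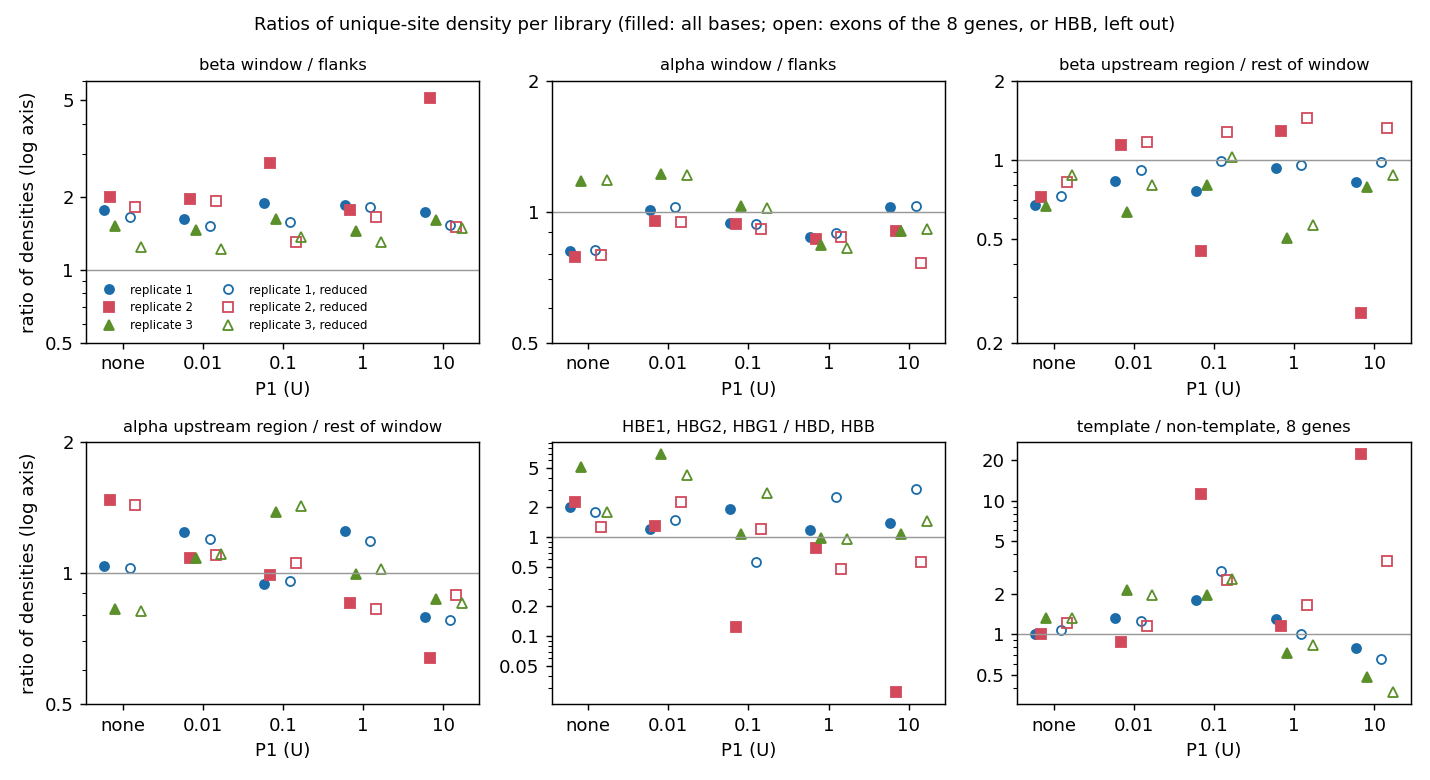
Ratio of unique-site densities per library (vertical axis, logarithmic) by amount of P1 (horizontal axis) for 6 comparisons, with a colour and shape per replicate and open symbols for values with the exons of the 8 genes, or HBB, left out. Replicate 2 at 10 U stands at 5.13 for the beta window and at 22.2 for the strands in filled symbols.

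The template over the non-template strand of the 8 gene bodies together gave 1.00, 1.00 and 1.32 without P1, 1.32, 0.882 and 2.14 at 0.01 U, 1.80, 11.3 and 1.95 at 0.1 U, 1.31, 1.15 and 0.724 at 1 U, and 0.784, 22.2 and 0.478 at 10 U. The 2 highest values were 0.1 U and 10 U replicate 2. With HBB left out the ratio was 1.08, 1.21 and 1.32 without P1 and 3.00, 2.54 and 2.60 at 0.1 U, higher in 3 of 3 replicates by a factor of 2.26, while the spread of the 5 amounts gave an exact permutation p of 0.293. The factor at 10 U was 1.34 (exact permutation p = 0.76). It turned to 0.447 without the 2 libraries, and so without replicate 2 (exact permutation p = 0.04, the smallest that 25 arrangements allow). With all libraries it turned to 0.633 without HBB (exact permutation p = 0.256).

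The lists of single-strand regions deposited for the 12 treated libraries, summed, held 15 regions in the beta window and 6 in its flanks, or 18.8 and 3.75 per 100 kb. The alpha window held 17 and its flanks 38, or 18.9 and 21.1 per 100 kb. Over chromosomes 1 to 22 and X the lists held 4.65 regions per 100 kb, so that both windows and the alpha flanks were above this density. Without the 2 libraries the beta window held 8 regions and its flanks 2, and the alpha window 11 and its flanks 21. The density over the chromosomes was computed with all 12 lists only, so these smaller counts were not compared with it. Of the 32 regions in the windows, 3 in each of the 2 libraries were HBB exons, with 121, 106 and 50 treated sites in 10 U replicate 2 against 1, 0 and 0 untreated sites. HBA2 had a region in each (23 and 4 treated sites) and HBA1 in 10 U replicate 2 (14). The 8 beta regions of the other libraries had 3 to 6 treated sites. HBE1 exon 2 was listed in 0.01 U replicate 3 (chr11:5290801-5290880, 5 treated and 0 untreated sites) and in 0.1 U replicate 1 (chr11:5290771-5290880, 6 and 2). HBB had 1 region outside the 2 libraries, in 0.1 U replicate 1 (chr11:5248051-5248130, 4 treated and 1 untreated sites). The other 5 lay in no globin gene.

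The regulators and other genes of red cells, a list of 30 with transcription factors such as GATA1 and KLF1, heme enzymes such as ALAS2, and membrane proteins, were not called at any amount. None of 30 gene bodies or 29 promoter windows passed the edgeR test, and at an unadjusted p under 0.05 there were 0 or 1 gene bodies and 1 to 3 windows per amount. At 10 U these were 1 of 30 and 3 of 29, where 10.1% of all gene bodies and 10.9% of all windows were at such a p. At 0.01, 0.1 and 1 U the shares were 5.00%, 5.03% and 5.64% of all gene bodies and 4.39%, 4.20% and 5.03% of all windows. DESeq2 called no gene body or promoter window anywhere at any amount. The median log2 difference of the list at 10 U was -0.02 for gene bodies and -0.21 for promoter windows. The 6 olfactory receptor genes were not called either.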

How the data were processed

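The authors aligned reads to hg19 with BWA-MEM 0.7.12, removed termini with over 40% T in the 20 upstream bases, and deposited counts of 3′-OH termini per position and strand, besides lists of regions from SICER 1.1 (window 10, gap 30, threshold 0.01, an E-value in the methods and an FDR in the file labels), each treated library against the untreated library of the same number. The deposited region lists also hold the authors' own p-values, FDR and fold ratios, which were not used. Sites were assigned to canonical transcripts of GENCODE release 44 lifted to hg19. Unique sites per gene body, promoter window, 5 kb bin and exon strand were tested with edgeR 4.0.16 (R 4.3.3, quasi-likelihood, library size as all unique nuclear sites, at least 15 sites for bins and promoter windows and 10 for bodies and exons, replicate number as a block, Benjamini-Hochberg over all features, threshold 0.05). Density ratios were tested by exact two-sided permutation within replicate numbers, with 0.5 added to each count (scipy 1.17.1). The strand test of exons, the white blood cell list and the fits without 0.1 U and 10 U replicate 2 were chosen after the data were seen, and all members and lists with earlier results of these data known. The named genes were the 8 members, with the genes of highest excess in a library. Scripts were tested on simulated data. PCR copies cannot be told from separate ends, and the intervals cover counting error only, not the variation between libraries. Not every recurrent position is reported here.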

Additional observations from a re-analysis of the deposited data

How the results depend on the processing

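Of 284 alternative values for 31 results, 227 counted as unchanged. For differences and ratios this meant the same direction and side of the threshold, and for p-values of a spread the same side. For counts of calls or regions it meant an equal or similar number, and many counts of calls stayed at 0. Of the 57 others, 25 left out replicate 2 or the 2 libraries 0.1 U and 10 U replicate 2. Without these 2 libraries the called bins at 10 U, promoter windows at 10 U, gene bodies at 0.1 U and 10 U and exon strands each went from 1 to 0, as they did under DESeq2 (not run for exon strands), and 19 deposited regions were left. Leaving out each replicate gave 0 to 1 called bins at 10 U, 0 promoter windows at 10 U, 0 to 1 gene bodies at 0.1 U and at 10 U, and 0 to 2 exon strands. Bins of 2 kb gave 2 calls at 10 U, bins of 10 kb 1 call at 0.1 U, and promoters of 2.5 kb 1 call at 0.1 U. The deviations of same-numbered samples had correlations of -0.0267 to 0.0588 over 12106 genes, and those of pairs with other numbers -0.0877 to 0.0586. Of 15 samples, 11 correlated best with their own number, and what equal numbers share was not tested. With no replicate block 0 gene bodies were called at 0.1 U (HBB 3.93, adjusted p = 0.0661 in edgeR) and 1 at 10 U. With no block by sample 2 exon strands were called, HBB and HBE1 (1.31, adjusted p = 0.0498 in edgeR), while HBB was at -0.10 without the 2 libraries and at 0.24 to 5.12 leaving out a replicate.

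For the factor at 10 U, the beta window gave 2.34 with sites of at least 2 termini (exact p = 0.048) and 0.996 with exons left out, and the spread of its amounts gave p = 0.025 to 0.575 in exact tests leaving out a replicate. The alpha window gave 0.936 to 1.08 leaving out a replicate and 1.08 against all nuclear sites. The beta upstream region gave 0.571 to 1.13 leaving out a replicate, 1.10 against all nuclear sites and 1.12 with exons left out. The alpha upstream region gave 0.651 to 0.770 leaving out a replicate, 0.923 against all nuclear sites and 0.778 with exons left out. Expressed over adult genes gave 0.186 with all termini (exact p = 0.032). The strand ratio gave 0.447 to 2.67 leaving out a replicate and 0.633 without HBB. Each factor without the 2 libraries was the one without replicate 2, because the test keeps only replicate numbers with a 10 U library. Where no cause is shown by the alternative itself, the cause was not tested. With 0 to 14 sites per globin gene and library outside the 2, small differences were not detectable at this depth.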
